A study of Homo sapiens with 10 samples.

Results

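The genes described here are those of the BET proteins BRD2 and BRD3 and of the factors that hold and release P-TEFb: the kinase CDK9, its cyclins CCNT1 and CCNT2, the inhibitors HEXIM1 and HEXIM2, and LARP7. Their members were the regions of the annotated H3K27ac count table whose gene symbol is one of these 8 names. The rule gave 16 of 67387 annotated regions and covered 7 of the 8 genes. BRD3 had 5 regions, HEXIM1 had 4, HEXIM2 and CCNT2 had 2 each, and CDK9, CCNT1 and LARP7 had 1 each. BRD2 was not analysed here. Regions had 1 fixed width, on the hg38 build, and each symbol is the nearest-gene assignment deposited with the table, so a region named for a gene is not by that alone shown to control it.

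The cells were H1975, an EGFR-mutant line derived from a lung adenocarcinoma. The DMSO group had 21 drug-free days and then 3 days of DMSO. The osimertinib DTP group, drug-tolerant persister cells that outlast EGFR inhibition, had 500 nM osimertinib for 24 days. The osimertinib DTP + AZD5153 group had 500 nM osimertinib for 21 days and then 150 nM AZD5153, a BET bromodomain inhibitor, for 3 days. The labels do not say whether osimertinib stayed on during the AZD5153 days, so no group holds 24 days of osimertinib with AZD5153 known to be added on top. Each group had 3 H3K27ac libraries, described as biological triplicates of 1 cell line, and 1 pooled input library served all of them.

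BET proteins bind acetylated histones through paired bromodomains and bring transcription factors and kinases to active promoters and enhancers. P-TEFb, the pair of CDK9 with cyclin T1 or T2, phosphorylates RNA polymerase II and pausing factors so that elongation can proceed. A large pool of P-TEFb is kept inactive in the 7SK particle, where HEXIM1 or HEXIM2 blocks the kinase, LARP7 protects the 7SK RNA and MEPCE caps it. BET inhibitors are known to release P-TEFb from this particle, and the HEXIM1 transcript is widely used as a readout of BET inhibitor exposure. H3K27ac, the acetyl mark measured here, lies on active promoters and enhancers and is not a measure of transcript.

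The question put to these genes was whether AZD5153 moved their acetylation away from that of osimertinib DTP cells, and whether they differed from DMSO cells. Between osimertinib DTP + AZD5153 and osimertinib DTP, none of the 16 regions passed the test. Against DMSO, the regions that passed were an intragenic pair at BRD3, which were 4.35-fold and 4.90-fold higher with osimertinib DTP + AZD5153 and also higher in osimertinib DTP without AZD5153. These calls did not hold when DMSO library 2 or DMSO library 3 was left out. Without DMSO library 1, the call with AZD5153 at the stronger of the pair and both osimertinib DTP calls were lost. Both osimertinib DTP calls were also lost without osimertinib DTP library 2. With AZD5153, the log2 fold change over DMSO at the stronger of the pair went from 2.29 to 1.53 without osimertinib DTP + AZD5153 library 3. The HEXIM1 promoter was 1.40-fold higher with AZD5153 than in osimertinib DTP and 1.34-fold higher than in DMSO, and neither value passed the test across the 9 libraries.

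Promoter sequences were read from RefSeq (GRCh38.p14) for the 7 genes analysed here, with 10 promoter entries, of which 8 overlapped a member region. The 250 bases before the start are shown for HEXIM1, since its promoter region carried the gene's highest H3K27ac, for CDK9, the kinase, and for BRD3, whose main promoter lies apart from the pair of regions that passed the test. Capitals mark, on either strand, the GC box GGGCGG, the CCAAT box CCAAT, the E-box CACGTG, the TATA box TATAAA and the cAMP response element TGACGTCA. Adjoining or overlapping matches run together as 1 block of capitals.
HEXIM1 promoter, chr17:45148225-45148474: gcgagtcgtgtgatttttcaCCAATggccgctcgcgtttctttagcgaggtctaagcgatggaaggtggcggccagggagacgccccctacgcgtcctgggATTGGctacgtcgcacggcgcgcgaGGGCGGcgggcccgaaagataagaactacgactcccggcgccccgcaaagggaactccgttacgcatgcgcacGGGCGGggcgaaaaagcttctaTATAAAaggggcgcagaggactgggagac
CDK9 promoter, chr9:127785784-127786033: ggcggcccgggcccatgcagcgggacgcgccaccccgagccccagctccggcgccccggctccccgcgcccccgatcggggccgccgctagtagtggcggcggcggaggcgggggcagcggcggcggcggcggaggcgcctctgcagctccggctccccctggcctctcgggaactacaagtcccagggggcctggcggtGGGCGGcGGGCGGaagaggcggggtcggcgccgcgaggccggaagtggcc
BRD3 promoter, chr9:134068027-134068276: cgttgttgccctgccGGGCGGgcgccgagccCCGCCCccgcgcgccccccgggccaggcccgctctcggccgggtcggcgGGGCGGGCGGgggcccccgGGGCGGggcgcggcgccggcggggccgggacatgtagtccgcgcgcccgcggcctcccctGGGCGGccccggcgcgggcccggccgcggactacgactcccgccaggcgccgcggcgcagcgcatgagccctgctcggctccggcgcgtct
The HEXIM1 and CDK9 sequences are on the plus strand and the BRD3 sequence is on the minus strand. HEXIM1 held 2 GC boxes, 2 CCAAT boxes and 1 TATA box, CDK9 held 2 GC boxes, and BRD3 held 6 GC boxes. Of 35116 RefSeq promoters of the same length, 42.6% held a GC box, 32.0% a CCAAT box, 10.7% a TATA box, 6.34% an E-box and 1.65% a cAMP response element. G and C made up 86.8% of the BRD3 window and 82.0% of the CDK9 window, above 99.8% and 98.3% of all promoters, and 62.4% of the HEXIM1 window, above 60.3%. The other promoters that overlapped a region ranged from 55.2% at HEXIM2 to 69.6% at CCNT2. These are matches of letters, with no binding measured.

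Library totals ran from 6263443 to 10463351 counts, and counts at the 16 regions from 17 to 729. The input library, with a total of 1870885, had 4 to 25 counts at these regions and a median of 10 over all counted regions. Levels are given as CPM, counts scaled to the library total after TMM normalisation. Epithelial KRT7, KRT8, KRT18, EPCAM and CDH1 and lung NKX2-1 and NAPSA had regions, the leukocyte genes PTPRC and CD3E and the liver gene ALB had no assigned region, and intronic regions assigned to endothelial PECAM1 and CDH5 had 31 to 257 and 198 to 649 counts. A pair of libraries stood apart from the others of their groups. Promoter regions took 59.8% of the annotated counts in osimertinib DTP library 2 and 66.7% in osimertinib DTP + AZD5153 library 3, against 40.3% to 45.9% in the other 7. The rank correlation of osimertinib DTP + AZD5153 library 3 with libraries 1 and 2 of its group over regions was 0.430 and 0.354. For osimertinib DTP library 2 with libraries 1 and 3 of its group it was 0.822 and 0.818, near the 0.835 between those libraries. That library therefore stood apart by promoter share and not by this correlation. Osimertinib DTP library 2 was the highest of its group at 12 of the 16 regions and osimertinib DTP + AZD5153 library 3 at 10. The part of this split in the differences below was not tested, and values from the 7 libraries left without both are given beside the main differences at the leading and promoter regions.

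BRD3 binds acetylated histones at active genes and belongs to the family that AZD5153 inhibits. Its leading region, the one with the highest mean CPM over the libraries, was chr9:134056386-134056887, at -374 bp from the start of a transcript that begins inside the gene, and 11.7 kb from the main promoter region. The CPM there was 6.53, 3.30 and 5.83 in the DMSO libraries. It was 22.3, 49.4 and 16.9 for osimertinib DTP and 15.2, 15.2 and 46.8 with AZD5153. Each of the 6 drug-treated libraries was above each DMSO library, and the treated groups overlapped each other, with osimertinib DTP library 2 and osimertinib DTP + AZD5153 library 3 the highest. The log2 fold change of osimertinib DTP + AZD5153 over DMSO was 2.29 ± 0.63 (SE, 95% interval 0.96 to 3.62, edgeR adjusted p = 0.0196). That of osimertinib DTP over DMSO was 2.49 ± 0.64 (1.15 to 3.83, adjusted p = 0.0204), and 1.93 ± 0.38 without the 2 libraries that stand apart. Between the treated groups it was -0.20 ± 0.60 (-1.46 to 1.06, adjusted p = 1.00).

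The neighbouring region, chr9:134055629-134056130, lies 0.8 kb away over the start of that transcript. Its CPM was 6.89, 3.61 and 4.32 for DMSO, 19.6, 32.6 and 16.01 for osimertinib DTP, and 14.2, 14.5 and 36.1 with AZD5153. The order of the groups was as at the leading region, with DMSO below every treated library. The log2 fold changes over DMSO were 2.12 ± 0.59 (0.89 to 3.35, adjusted p = 0.0196) with AZD5153 and 2.19 ± 0.59 (0.96 to 3.43, adjusted p = 0.0250) without it. Without the 2 libraries that stand apart, the log2 fold changes of osimertinib DTP + AZD5153 over DMSO at the pair were 1.61 ± 0.38 (adjusted p = 0.00116) and, at the leading region, 1.62 ± 0.38 (adjusted p = 0.000999). Leaving out DMSO library 2 or DMSO library 3 raised the adjusted p of both above 0.05 (0.115 and 0.109 at this region, 0.116 and 0.0823 at the leading region), and leaving out DMSO library 1 did so at the leading region (0.0569). For osimertinib DTP over DMSO, leaving out any 1 DMSO library or osimertinib DTP library 2 did so at both (adjusted p from 0.0576 to 0.147), and leaving out osimertinib DTP library 3 did so at chr9:134055629-134056130 (0.0501). Both comparisons use the same DMSO libraries. The pair also lies within LOC100130548, a long non-coding RNA gene of RefSeq at chr9:134054290-134058805, and the counts cannot say which of the overlapping genes the acetylation belongs to.

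The peaks that the authors called in each library gave a second reading of the same loci. At the leading BRD3 region the MACS2 fold enrichment was 3.12 in DMSO library 1, 2.43 in DMSO library 3, and no peak was listed in DMSO library 2. It was 12.2, 31.6 and 8.11 for osimertinib DTP and 10.1, 8.48 and 24.3 with AZD5153. These values come from the same reads and are not a separate experiment. The value of osimertinib DTP + AZD5153 library 3 is that of a 6148 bp peak, and that of osimertinib DTP library 2 is of a 3116 bp peak. The DMSO peaks were 486 and 342 bp wide. Osimertinib DTP library 2 and all osimertinib DTP + AZD5153 libraries had the same value at both regions of the pair. Their values are therefore not readings of the leading region alone. Of the 16 regions, 13 had an overlapping peak in all 9 libraries (81.2%, against 40.5% of all annotated regions). All 16 are annotated as promoter regions, whereas the annotated regions also include intronic and distal ones, so the shares come from unlike sets. The others were the BRD3 pair, without a peak in 1 DMSO library, and the most downstream HEXIM1 region, without one in 2.

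**Figure D1:**
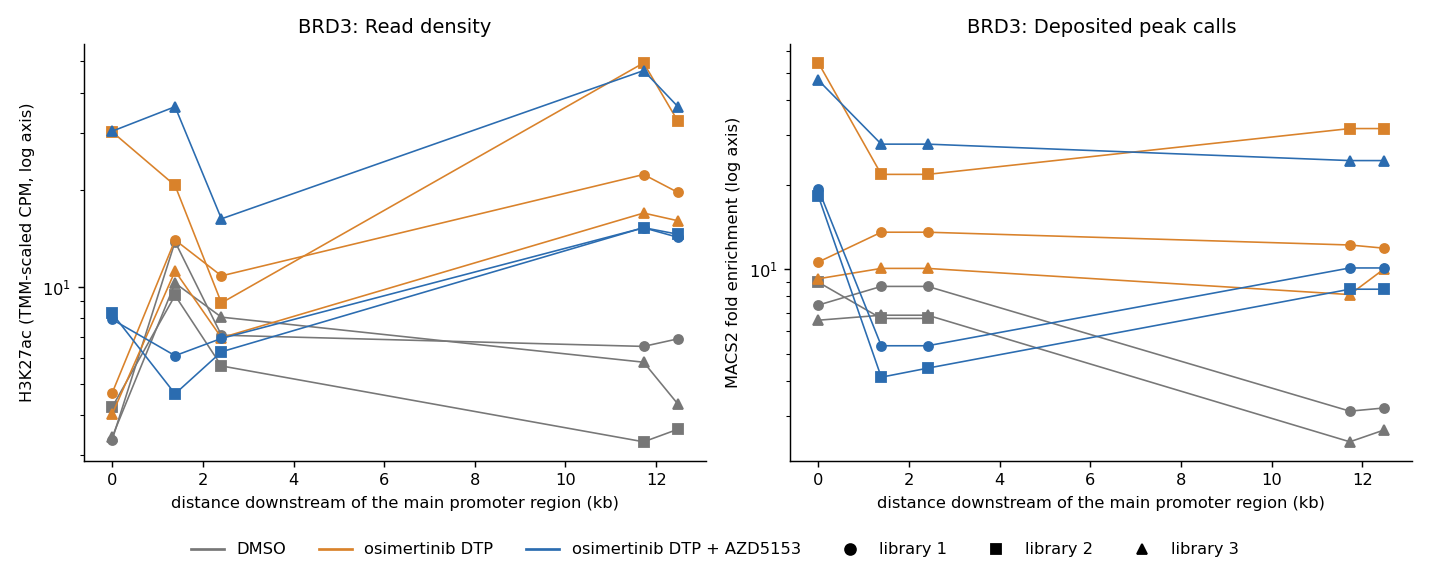
The 5 BRD3 regions by distance in kb downstream of the main promoter region, with TMM-scaled CPM on the left and MACS2 fold enrichment of the overlapping peak on the right, both on log axes and with 1 line for each library. At 11.7 kb and beyond, the DMSO libraries lie at 3.30 to 6.89 CPM and the treated libraries at 14.2 to 49.4 CPM; where no peak was listed no point is drawn.

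The main BRD3 promoter region, chr9:134068110-134068611, which holds 167 bases of the sequence shown above, had a CPM of 3.36, 4.23 and 3.42 in DMSO. It had 4.68, 30.2 and 4.03 for osimertinib DTP and 7.91, 8.26 and 30.3 with AZD5153. The osimertinib DTP + AZD5153 libraries were above all DMSO libraries, whereas in osimertinib DTP only library 2 stood far above DMSO. The log2 fold change of osimertinib DTP + AZD5153 over DMSO was 2.07 ± 0.77 (0.44 to 3.69, adjusted p = 0.0718), and over osimertinib DTP it was 0.26 ± 0.74 (-1.30 to 1.81, adjusted p = 1.00). Without the 2 libraries that stand apart these were 1.21 ± 0.43 (adjusted p = 0.0212) and 0.94 ± 0.47 (adjusted p = 0.211).

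The remaining pair of BRD3 regions lie between, 1825 bp and 802 bp downstream of an annotated start. At the first, chr9:134065700-134066201, CPM ranged from 5.68 to 16.2 with the groups overlapping. At the other, chr9:134066723-134067224, it was 13.8, 9.40 and 10.3 for DMSO, 13.96, 20.6 and 11.2 for osimertinib DTP, and 6.11, 4.65 and 36.1 with AZD5153. There osimertinib DTP + AZD5153 libraries 1 and 2 were the lowest of all and library 3 the highest of all. The log2 fold change against osimertinib DTP was 0.03 ± 0.68 with all libraries and -1.17 ± 0.44 (-2.06 to -0.29, adjusted p = 0.106) without the 2 that stand apart. Counts summed over all BRD3 regions differed from DMSO by a log2 fold change of 1.09 ± 0.38 (0.23 to 1.96, adjusted p = 0.0790) with AZD5153, and by 0.53 ± 0.26 (adjusted p = 0.140) without the 2 libraries that stand apart.

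HEXIM1 inhibits CDK9 within the 7SK particle, and its transcript is the one used to follow BET inhibition. Its leading region, chr17:45147799-45148300, lies at -202 bp from the annotated start and holds 76 bases of the promoter sequence above. The CPM was 30.5, 45.6 and 30.8 in DMSO and 32.0, 43.1 and 27.1 in osimertinib DTP. It was 51.7, 61.2 and 29.8 in osimertinib DTP + AZD5153. Libraries 1 and 2 with AZD5153 were above all 6 libraries without it, and library 3, one of those that stand apart, was among the lowest. The log2 fold change of osimertinib DTP + AZD5153 was 0.48 ± 0.49 (-0.54 to 1.51, adjusted p = 1.00) over osimertinib DTP and 0.42 ± 0.49 (-0.60 to 1.44, adjusted p = 0.605) over DMSO. Without the 2 libraries that stand apart it was 0.99 ± 0.32 (0.33 to 1.64, adjusted p = 0.0764) over osimertinib DTP. Over DMSO it was then 0.74 ± 0.29, which passed the test (adjusted p = 0.0360). That run was added after seeing the data and called 42.6% of all regions over DMSO. Without osimertinib DTP + AZD5153 library 3 alone, the value over DMSO was 0.66 and did not pass (edgeR adjusted p = 0.235). With all libraries it was 0.22 over DMSO by library size and 0.09 with a loess offset. The MACS2 fold enrichment was 17.4, 27.7 and 16.7 for DMSO, 23.4, 36.8 and 17.1 for osimertinib DTP, and 35.1, 39.7 and 24.3 with AZD5153, where library 1 was below osimertinib DTP library 2. The value of library 3 with AZD5153 is that of a 5088 bp peak that also spans the downstream HEXIM1 regions. The peaks of the other libraries here were 1382 to 1849 bp wide, so its value is not a reading of this region alone.

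The HEXIM1 regions downstream of the start had another order of libraries. At chr17:45149308-45149809, 806 bp downstream, CPM was 16.9, 21.8 and 15.5 for DMSO, 25.1, 48.7 and 18.9 for osimertinib DTP, and 25.6, 18.3 and 50.1 with AZD5153. At chr17:45149810-45150311, which adjoins it, CPM was 18.1, 21.2 and 16.2 for DMSO, 24.8, 43.4 and 23.3 for osimertinib DTP, and 25.6, 18.03 and 42.5 with AZD5153. At both, the highest libraries were those that stand apart, and only the second had all osimertinib DTP libraries above all DMSO libraries. The log2 fold changes between the treated groups were 0.02 ± 0.54 and -0.09 ± 0.51. The most downstream region, 2374 bp from the start, had 2.89 to 8.62 CPM and a log2 fold change of -0.15 ± 0.55.

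HEXIM2 codes for the other inhibitor of this pair and is the neighbour of HEXIM1, with 13.3 kb between their leading regions. RefSeq places the antisense gene HEXIM2-AS1 (chr17:45149662-45161538) across the interval, and H3K27ac has no strand, so signal there cannot be assigned to one of the overlapping genes. The HEXIM2 leading region, chr17:45161121-45161622, had the highest mean of all member regions. Its CPM was 39.8, 46.3 and 35.5 for DMSO, 42.7, 101 and 39.4 for osimertinib DTP, and 47.4, 55.4 and 137 with AZD5153. All osimertinib DTP + AZD5153 libraries were above all DMSO libraries, by little in library 1. On the log2 scale it differed by 0.98 ± 0.54 (-0.16 to 2.12, adjusted p = 0.229) over DMSO and 0.38 ± 0.54 (-0.75 to 1.51, adjusted p = 1.00) over osimertinib DTP. Over DMSO this fell to 0.42 ± 0.28 (adjusted p = 0.218) without the 2 libraries that stand apart and to 0.34 without osimertinib DTP + AZD5153 library 3 alone. The second region, chr17:45161811-45162312, over an annotated start, ranged from 7.95 to 17.6 CPM with the groups overlapping.

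LARP7 stabilises the 7SK RNA. Its region, chr4:112637016-112637517, covers an annotated start. The CPM was 13.97, 20.7 and 12.3 for DMSO, 11.5, 23.4 and 11.3 for osimertinib DTP, and 23.8, 23.6 and 9.28 with AZD5153. As at the HEXIM1 promoter, library 3 with AZD5153 was low, here the lowest of all, while libraries 1 and 2 were the highest of all. The log2 fold change over osimertinib DTP was 0.30 ± 0.56 (-0.86 to 1.47, adjusted p = 1.00) with all libraries and 1.11 ± 0.38 (0.34 to 1.89, adjusted p = 0.0873) without the 2 that stand apart. Over DMSO it was 0.28 ± 0.55 (adjusted p = 0.778), and 0.68 ± 0.34 (adjusted p = 0.104) without those 2.

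CDK9 is the kinase of P-TEFb. Its region, chr9:127786020-127786521, covers the start and holds only 14 bases of the promoter sequence above. It had a CPM of 20.3, 27.5 and 20.3 for DMSO, 18.6, 65.5 and 13.2 for osimertinib DTP, and 11.4, 13.96 and 44.8 with AZD5153. The libraries that stand apart were the highest, and libraries 1 and 2 with AZD5153 were below all DMSO libraries. On the log2 scale it differed by -0.48 ± 0.65 (-1.85 to 0.90, adjusted p = 1.00) over osimertinib DTP and 0.04 ± 0.65 (-1.33 to 1.41, adjusted p = 0.977) over DMSO. Without both libraries the former was -0.28 ± 0.38 (adjusted p = 0.656) and the latter turned to -0.76 ± 0.35 (adjusted p = 0.0766).

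The cyclins of P-TEFb are coded by CCNT1 and CCNT2. The CCNT1 region, chr12:48716304-48716805, had a CPM of 19.7, 26.0 and 22.3 for DMSO, 20.4, 19.5 and 13.8 for osimertinib DTP, and 17.5, 25.2 and 16.2 with AZD5153. Among the leading regions it had the narrowest range over the libraries, 13.8 to 26.0 CPM, and its log2 fold changes were 0.14 ± 0.49 (-0.90 to 1.17) over osimertinib DTP and -0.20 ± 0.49 (-1.24 to 0.83) over DMSO, and 0.38 ± 0.37 and 0.00 ± 0.33 without the 2 libraries that stand apart. The leading CCNT2 region, chr2:134918732-134919233, had 27.6, 37.1 and 24.9 CPM for DMSO, 25.4, 57.9 and 19.9 for osimertinib DTP, and 27.5, 40.5 and 60.3 with AZD5153. The groups overlapped, and the log2 fold change over osimertinib DTP was 0.31 ± 0.53 (-0.80 to 1.43), and 0.64 ± 0.34 (adjusted p = 0.240) without the 2 libraries that stand apart. The other CCNT2 region, chr2:134918047-134918548, lies over an annotated start where RefSeq also has the antisense gene CCNT2-AS1, and had 12.4 to 28.0 CPM.

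**Figure D2:**
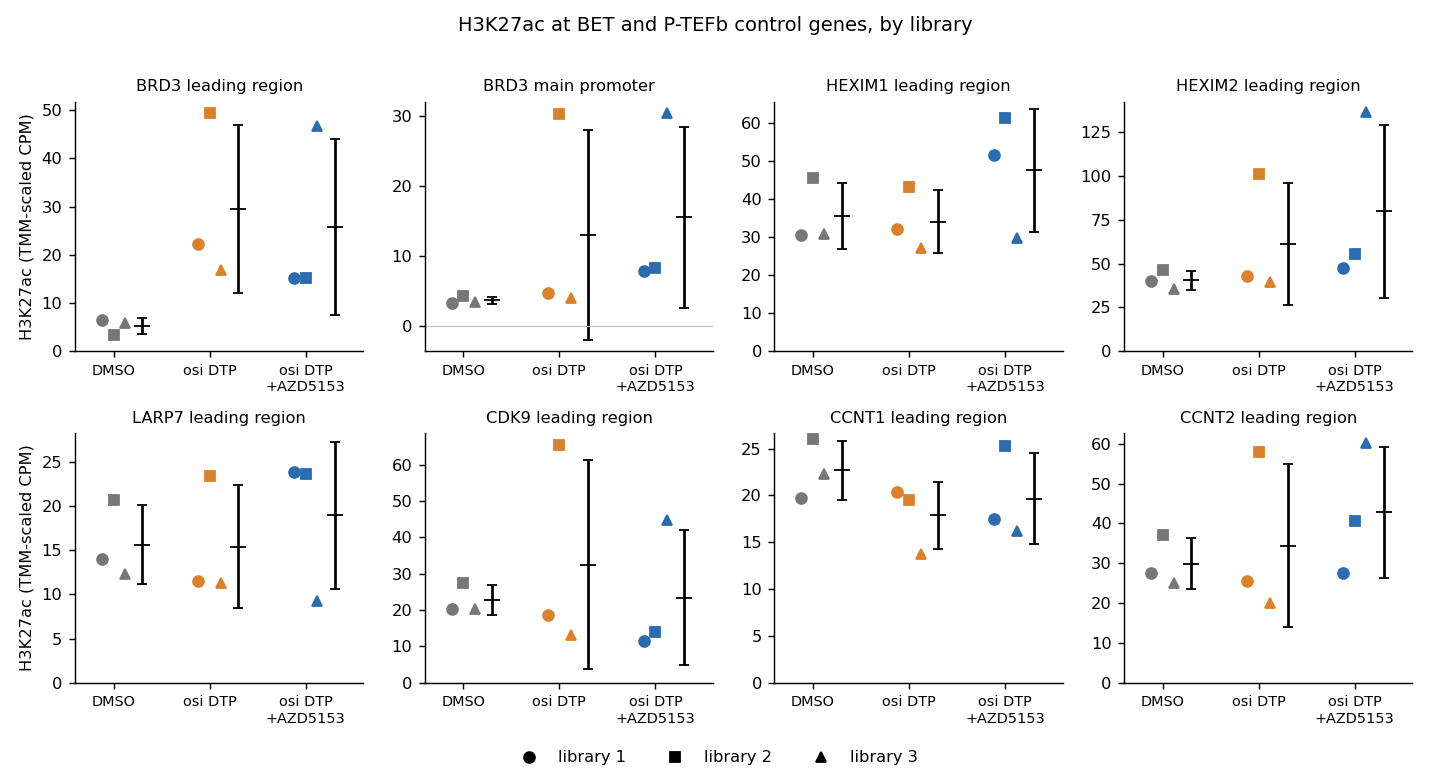
TMM-scaled CPM of H3K27ac in each of the 9 libraries at the leading region of 7 genes and at the main BRD3 promoter region, by group (osi DTP is osimertinib DTP), with the marker shape giving the library number and the black bar the group mean ± SD (n = 3). DMSO libraries lie below all treated libraries at the BRD3 leading region, and osimertinib DTP library 2 and osimertinib DTP + AZD5153 library 3 are the highest of their groups at BRD3, HEXIM2, CDK9 and CCNT2.

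Since all regions have the same width, levels can be set side by side. The mean CPM over the 9 libraries at the leading regions was 60.5 ± 34.9 (SD) at HEXIM2, 39.1 ± 11.9 at HEXIM1, 35.7 ± 14.7 at CCNT2, 26.2 ± 17.9 at CDK9, 20.2 ± 16.96 at BRD3, 20.1 ± 4.01 at CCNT1 and 16.6 ± 6.10 at LARP7. Among the leading regions of 15633 genes, these were above 98.8%, 90.4%, 86.9%, 72.9%, 59.2%, 59.0% and 49.1%. For every pair of neighbours in this order except CCNT2 over CDK9, the mean difference within libraries was smaller than its SD. The order pools groups that differ at BRD3, whose group means were 5.22 CPM in DMSO, the lowest of the 7 genes there, 29.5 in osimertinib DTP and 25.7 with AZD5153. CCNT2 was above CDK9 in 8 of 9 libraries, by 9.49 ± 9.39 CPM.

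Counted over all 16 regions, 0 passed the test between osimertinib DTP + AZD5153 and osimertinib DTP (edgeR), and 0 reached an unadjusted p under 0.05. The share of all 157919 tested regions that passed was 0%, with 7013 regions at an unadjusted p under 0.05. DESeq2 also called 0 of the 16, against 0.0595% of all regions. The median log2 fold change of the 16 was 0.08, against 0.06 over all tested regions, and the groups overlapped at every one. The intervals reached down to -1.85 at CDK9 and up to 1.81 at the main BRD3 promoter, and differences within an interval were not detectable with these libraries. Over DMSO, 2 of 16 (12.5%) were higher with AZD5153 and 0 lower, against 9.05% of all tested regions called higher. The median log2 fold change was 0.50, against 0.23 over all, and 0.42 over the 11 regions outside BRD3. In 4 of the 16 the lowest library with AZD5153 was above the highest DMSO library, against 14.4% of all regions. These were 3 of the BRD3 regions and the HEXIM2 leading region. For osimertinib DTP over DMSO, 2 of 16 were higher, against 5.58% of all, and 3 were separated from DMSO, against 20.2% of all. Without the 2 libraries that stand apart, 4 of 16 were called higher over DMSO with AZD5153, against 22.8% of all regions, and 2 without AZD5153, against 14.9%. With 16 regions, no share is read as a result about these genes.

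**Figure D3:**
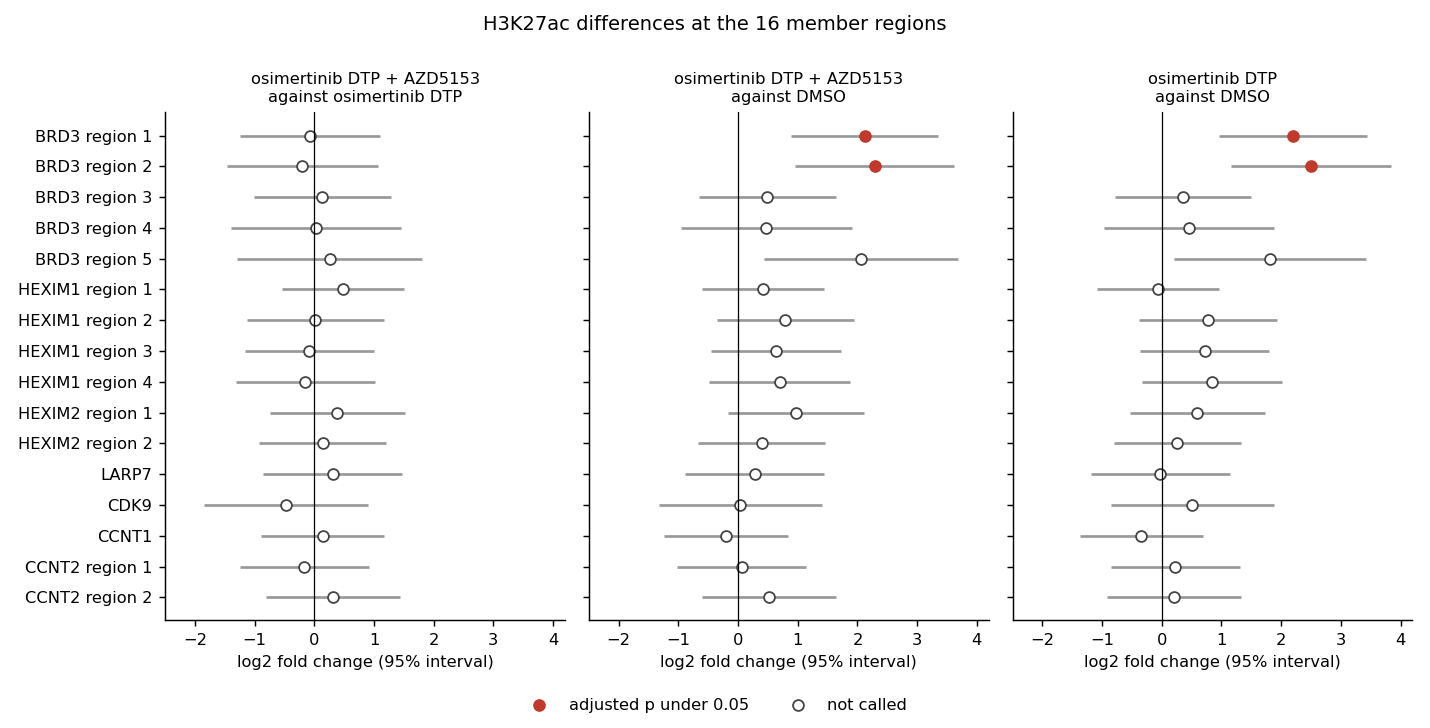
Log2 fold changes with 95% intervals at the 16 regions, numbered by position within each gene, in 3 comparisons, with filled points for an adjusted p under 0.05. The points that passed are the first pair of BRD3 regions, at 2.12 and 2.29 over DMSO with AZD5153 and 2.19 and 2.49 without it, and in the left panel every interval includes 0.

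**Figure D4:**
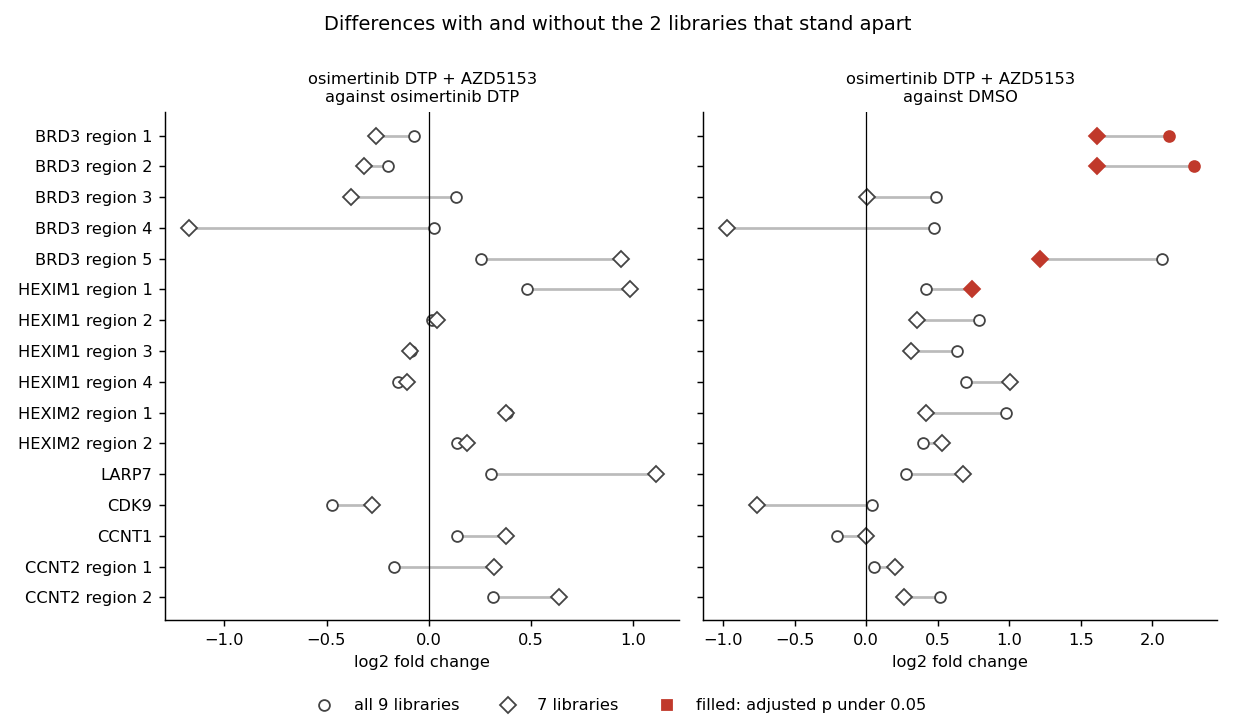
Log2 fold changes at the 16 regions from all 9 libraries (circles) and from the 7 left without osimertinib DTP library 2 and osimertinib DTP + AZD5153 library 3 (diamonds), filled where the adjusted p is under 0.05. In the left panel HEXIM1 region 1 moves from 0.48 to 0.99 and LARP7 from 0.30 to 1.11, and in the right panel HEXIM1 region 1 and BRD3 region 5 become filled at 0.74 and 1.21.

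Summed over each gene's regions, 0 of the 7 genes passed the test between the treated groups (0% of 15633 genes) or over DMSO with AZD5153 (18.1% of genes in either direction). In the latter BRD3 and HEXIM2 had an unadjusted p of 0.0183 and 0.0321, and DESeq2 called 1 of the 7, against 27% of genes. In the former no gene had an unadjusted p under 0.05, and DESeq2 called none of the 7, against 0.704% of genes. The log2 fold changes over DMSO were 1.09 at BRD3, 0.59 ± 0.23 at HEXIM2 (adjusted p = 0.115) and 0.38 ± 0.19 at HEXIM1 (adjusted p = 0.210). Without the 2 libraries that stand apart, the BRD3 and HEXIM2 totals over DMSO were 0.53 (adjusted p = 0.140) and 0.30 (adjusted p = 0.138). With them left out, HEXIM1 at 0.44 ± 0.15 (adjusted p = 0.0425) and LARP7 at 0.56 ± 0.17 (adjusted p = 0.0273) were higher over DMSO with AZD5153, against 21.1% of genes called higher. BRD3, at 1.16 ± 0.26 (adjusted p = 0.0140), was higher in osimertinib DTP over DMSO, against 14.3%, and CDK9 was lower with AZD5153 at -0.90 ± 0.18 (adjusted p = 0.00520), against 22.2% called lower. CDK9 and LARP7 have 1 region each, so their totals hold the same counts as the region, which in the fit over regions without the same libraries was not called at either (adjusted p = 0.0766 and 0.104). Those 2 calls rest on the fit over gene totals. When osimertinib DTP + AZD5153 library 3 alone was left out, 0 of the 7 totals passed over DMSO with AZD5153, against 31.7% of genes.

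Other genes of the elongation machinery were taken from a list of 40, of which 34 had a region. Between the treated groups, 0 of their 34 leading regions and 0 of their 156 regions passed the test. Over DMSO, 2 leading regions were higher with AZD5153 and 0 lower, and over all 156 regions 15 were higher and 4 lower. Of all 157919 tested regions, 9.05% were called higher and 18.1% were called in either direction. The 2 leading regions called were annotated as intronic and assigned to CHD4, a chromatin remodeller, and to AFF3, a scaffold of the super elongation complex. The CHD4 region had 7.89, 6.71 and 2.61 CPM in DMSO and 26.3, 25.9 and 53.7 in osimertinib DTP + AZD5153 (log2 fold change 2.62 ± 0.63, adjusted p = 0.0101), with all osimertinib DTP libraries also above DMSO. AFF3 had a log2 fold change of 2.35 ± 0.78 (adjusted p = 0.0440) on 2 to 7 counts in DMSO and 2 to 32 with AZD5153, and these groups overlapped. In osimertinib DTP without AZD5153 it had 27 to 54 counts, with all libraries above DMSO (log2 fold change 3.17 ± 0.78, adjusted p = 0.0173). Between the treated groups its log2 fold change was -0.82 ± 0.69. MLLT3, a super elongation complex subunit, followed at 1.66 ± 0.63 (adjusted p = 0.0753).

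The other 7SK particle genes on that list were RN7SK, the RNA itself, and MEPCE. The smallest p among the 34 leading regions between the treated groups was at RN7SK, with 8.41, 17.5 and 8.16 CPM for osimertinib DTP and 23.5, 22.5 and 11.98 with AZD5153. Its log2 fold change was 0.77 ± 0.54 (-0.37 to 1.91, adjusted p = 1.00). Library 3 was again the lowest of those with AZD5153, as at HEXIM1 and LARP7. MEPCE had 34.0, 98.5 and 28.1 CPM for osimertinib DTP and 23.2, 29.3 and 102 with AZD5153, led by the libraries that stand apart.

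The leading regions whose log2 CPM ran most like that of HEXIM1 over the 9 libraries, among those of 15632 genes, were at RAMAC (Pearson r = 0.970), ZBTB8OS (0.970) and PABPN1 (0.967). The points share their library depth and promoter share, and 29 genes had r above 0.95.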

How the data were processed

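H3K27ac ChIP-seq of H1975 cells was deposited as counts per region for 9 libraries and 1 pooled input, and as peak lists per library. Per the labels, reads were single-end, 75 nt. The submitters' processing notes name hg38, BWA 0.7.17, MACS2 2.2.6, featureCounts 2.0.0 and ChIPseeker 1.29.1. The authors' counts are raw counts, and per the file headers and values each deposited peak carries a fold enrichment ratio over background and a −log10 q-value. How regions were merged, whether duplicate reads were removed, and the strand setting are not given in the sources used here. There were 0 unused columns.

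The counts of all 169637 regions were fitted with edgeR 4.0.16 (limma 3.58.1, R 4.3.3): filterByExpr with a minimum count of 10, TMM scaling, a mean per group over all 9 libraries, the robust quasi-likelihood test, and Benjamini-Hochberg adjustment over 157919 tested regions with a threshold of 0.05. TMM centres most regions, so a global gain or loss of the mark would not be seen. SE is the log2 fold change over the root of F. DESeq2 1.42.0, other scalings, counts corrected for the 1152 read starts and strands a region can hold, leaving out libraries, and a replicate block were alternatives. Peaks and regions were matched at 1 bp of overlap. The genes named are the members, each at its leading and promoter region, members called with AZD5153, the 3 genes most like HEXIM1, and at most 3 of the elongation list for each comparison by smallest p. Members and lists were chosen with earlier results of these data known. MEPCE was chosen for description after its values were seen. The counts over the elongation list include 1 gene that is not reported by name here. Deviations of same-numbered libraries correlated at 0.349, 0.368 and 0.341 between osimertinib DTP and DMSO, all over the 0.1 set for pairing, from the data and not from the labels. With AZD5153 they ran from -0.269 to 0.549, which does not pair them. Replicate libraries were not duplicates of each other: their counts differed by a chi-square of at least 4.00 for each degree of freedom.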

Additional observations from a re-analysis of the deposited data

How the results depend on the processing

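With 3 libraries a group, no member region and no member gene total passed the test between osimertinib DTP + AZD5153 and osimertinib DTP under any alternative run. Of all regions, 2.11% were called in either direction without both libraries that stand apart. The share was 0.122% without osimertinib DTP + AZD5153 library 3 and 0.0595% with DESeq2. Of all genes, 0.397%, 0.333% and 0.704% were called in the same runs. The other runs called no region or gene between the treated groups. Against DMSO, the number of member regions called with AZD5153 ran from 0 to 3 when 1 library was left out (1 without DMSO library 1, 0 without DMSO library 2 or 3, where 10.6%, 5.16% and 6.14% of all regions were called in either direction, against 18.1% with all libraries) and was 4 without both libraries that stand apart (42.6% of all), an alternative added after seeing the data. For osimertinib DTP it ran from 0 to 3, with 0 without any 1 of the DMSO libraries or osimertinib DTP library 2 and 1 without osimertinib DTP library 3 (0.701% to 5.04% of all regions, against 10.7% with all libraries). Member gene totals called over DMSO numbered 1 of 7 with DESeq2 (27% of all genes), 1 from regions within 1 kb of a start (13.9%), and 3 without both libraries (43.3%). The cause of these shifts was not tested.

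Log2 fold changes between the treated groups changed sign with 1 library left out at the leading regions of BRD3 (-0.96 to 0.35), HEXIM2 (-0.25 to 0.93), CDK9 (-1.36 to 0.52), CCNT1 (-0.09 to 0.26) and CCNT2 (-0.02 to 0.88), and at CCNT1 also with library size in place of TMM (-0.02) and with a loess offset (0.00). CDK9 over DMSO was -0.24 and -0.29 under those scalings, -0.02 with the replicate block, -0.76 without both libraries, and -0.84 to 0.34 with 1 left out. HEXIM1 and LARP7 kept their sign, at 0.25 to 0.99 and 0.07 to 1.11 between the treated groups. The replicate block left 2 member regions called over DMSO in both comparisons and changed no call, but brought the BRD3 pair close to the threshold. Its adjusted p at the leading region and its neighbour was 0.0488 and 0.0418 with AZD5153, and 0.0450 and 0.0456 in osimertinib DTP. Over all regions, the median of osimertinib DTP + AZD5153 over DMSO (log2) was 0.23 with TMM, -0.02 by library size and 0.30 with the loess offset, so changes are relative to that centre.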

Other observations

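The full count table held 15 further regions with no gene symbol inside the RefSeq bounds of member genes: 9 in BRD3, 2 in HEXIM2 and 1 each in HEXIM1, CDK9, CCNT1 and LARP7. Of these 13 had enough counts to be tested, and 0 passed the edgeR test in any of the 3 comparisons. Within BRD3 the nearest to the pair that rose, chr9:134058152-134058653, had 20, 4 and 10 counts for DMSO, 46, 11 and 35 for osimertinib DTP and 8, 8 and 37 with AZD5153, with a log2 fold change of 1.54 ± 0.82 for osimertinib DTP over DMSO (adjusted p = 0.255). The HEXIM2 region at chr17:45168637-45169138 had 17, 5 and 70 counts in osimertinib DTP + AZD5153, against 21, 8 and 20 in DMSO (log2 fold change 1.69 ± 0.84, adjusted p = 0.180), with library 3, one of those that stand apart, the highest.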
